A study of Mus musculus with 9 samples.

Results

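The comparison described here sets 3 microarrays of sclerotome micromass cultures that received BMP4 against 3 arrays of untreated cultures. These are 6 of the 9 arrays in the series, and the remaining 3 come from cultures that received TGF-β1. The sclerotome is the somite compartment from which the axial skeleton develops. It was taken ventral to the neural tube from mouse embryos at embryonic day 11.5 after the notochord had been removed. A micromass is a drop of dissociated mesenchymal cells plated at high density, a culture in which cartilage can form. Untreated cultures received no growth factor, BMP4 cultures received BMP4 at 50 ng/ml and TGF-β1 cultures received TGF-β1 at 5 ng/ml, each for 8 h. All cultures had serum, ascorbic acid and β-glycerolphosphate in the medium, and the labels name no genotype or strain. The sample records start the treatment after a night of culture, whereas the culture description has the factors in the medium from shortly after attachment. Each array was made from 50 ng of total RNA by an amplification in successive cDNA cycles, and the study describes its cultures as separate repeats. Every non-control probe set was tested, and the account follows gene families and functions outside the best known BMP target genes and the cartilage genes.

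BMP4 is a secreted ligand of the TGF-β superfamily. It binds receptor serine/threonine kinases that phosphorylate Smad proteins, and these enter the nucleus and act on target genes. In the embryonic axial skeleton BMP signalling promotes the change of sclerotome mesenchyme to cartilage, and it is restrained by secreted antagonists such as Noggin.

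The deposited values are log2 signals in which each probe set was centred on its median over the 9 arrays. A value of 0 is therefore the middle array for that probe set, differences between arrays are kept, and absolute levels, levels of different genes and signal over background cannot be read from them. The largest principal component (34.1% of the variance) had the BMP4 arrays at 22.1 to 43.1 and the TGF-β1 arrays at -32.1 to -23.9. The untreated arrays lay between the factors on it, at -11.8 to 2.2. The next (24.3%) had the untreated arrays at 12.4 to 45.8, BMP4 at -16.8 to -4.9 and TGF-β1 at -22.0 to -3.3. Another (16.7%) had the array numbered 2 highest in each group, at 14.3 for untreated, 19.4 for BMP4 and 30.5 for TGF-β1. The 3 genes chosen to mark the response were all higher with BMP4. Nog, which encodes Noggin, rose 10.3-fold, Papss2, a synthetase of the sulfate donor PAPS, rose 9.33-fold, and Sox9, the transcription factor that directs cartilage formation, rose 3.36-fold (adjusted p = 3.7e-05, 0.0013 and 0.0021). Of 6 sclerotome markers, 3 were called lower with BMP4 and 0 higher. Markers of other cell types that a dissection could carry along were also counted. In these lists 0 of 6 endothelial, 0 of 6 macrophage, 0 of 3 epithelial, 0 of 3 neural crest and glial and 0 of 4 erythroid genes were called in limma, and at an unadjusted p of 0.05 these were 1 endothelial gene (higher) and 3 erythroid genes (lower). Without the 3 arrays numbered 2, 1 endothelial gene was called higher and 2 erythroid genes lower, and up to 3 erythroid genes were called lower in the fits without 1 array. Called in limma were 1 of 7 skeletal muscle genes (Myf5, higher), 2 of 7 neuronal genes (Map2 higher, Nefl lower) and 2 of 4 notochord genes (Krt19 higher, with a difference of 1.61 ± 0.35, and Krt18 lower, with -1.29 ± 0.15). The mean level of the erythroid genes lay between -0.18 and 1.01 in untreated and between -0.36 and 0.01 in BMP4 arrays, with a median difference of -0.81, and its part in the results was not tested. In bulk cultures, fewer cells of a type and less RNA per cell cannot be told apart.

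Of 45037 probe sets, 2449 (5.44%) passed an adjusted p of 0.05 in limma. Of 18193 genes, each read from its most variable probe set, 628 were called higher with BMP4 (3.45%) and 820 lower (4.51%). The change reached 2-fold for 152 of the higher and 159 of the lower genes, and 4-fold for 25 and 15. The median log2 difference over all genes was 0.003. A call is named stable here when it was also made with the same sign in each of 9 fits that left out 1 array and when the 3 values with BMP4 all lay on one side of the 3 without. That separation alone held for 4199 genes (23.1%), and for a stable call it is given by the rule. There were 333 stable rises (1.83% of genes) and 417 stable falls (2.29%), and these shares are the background for the families below. Averaging all probe sets of a gene brought the difference of 35 of the 325 genes named here by the rule more than 1.5-fold nearer to 0 and ended 12 calls. Unless stated otherwise, each gene named below had a stable call, and its value is the log2 difference of BMP4 minus untreated ± SE (n = 3 arrays per group).

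The largest stable rise outside the known BMP targets and cartilage genes was that of Insyn2b, a relative of a protein of inhibitory synapses. Its centred log2 signal was 0.65, -0.35 and -0.07 in the untreated arrays and 3.64, 2.76 and 3.46 in the BMP4 arrays, a 9.26-fold difference (adjusted p = 0.00016). S1pr5, a receptor for the lipid sphingosine-1-phosphate, was at -0.31, -0.64 and -0.07 without and at 2.49, 3.31 and 2.45 with BMP4, 8.52-fold higher (adjusted p = 0.00013). Slc26a7, an anion transporter, was at -0.07, 0.87 and 0.00 without and at 2.86, 3.92 and 2.45 with BMP4, 7.04-fold higher (adjusted p = 0.0015). In all 3 genes the lowest BMP4 array lay more than 1 log2 unit above the highest untreated array. The rises that followed joined genes of unlike function: Ttr, a carrier of thyroid hormone and of retinol-binding protein, the kainate receptor subunit Grik3, the vesicle-priming protein gene Cadps, the hedgehog ligand Ihh, the microtubule-associated Map7d2, the Wnt antagonist Dkk1, the homeobox gene Cux2, Phyhipl, the metalloproteinase inhibitor Timp4, the BMP-binding Chrdl2, the retinoic acid hydroxylase Cyp26b1 and the Egf receptor ligand Tgfa. Their differences ran from 2.67 ± 0.21 for Ttr to 2.13 ± 0.35 for Tgfa. The size for Ttr rests on a probe set that can cross-hybridize, and it was 0.70 when such probe sets were left out. Averaging the probe sets of a gene gave 1.91 for Slc26a7, 1.30 for Grik3, 1.23 for Cux2, 1.22 for Timp4 and 0.78 for Tgfa, and quantile normalization gave 2.62 for Insyn2b.

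The largest stable fall was that of Cldn11, a tight junction claudin. It was at 0.00, 1.46 and -0.43 in the untreated arrays and at -2.96, -2.10 and -2.58 in the BMP4 arrays, 7.39-fold lower (adjusted p = 0.0036). Fgf18, a fibroblast growth factor of developing bone and cartilage, was at 0.00, 0.38 and -0.12 without and at -2.73, -2.49 and -2.63 with BMP4, 6.52-fold lower (adjusted p = 4.7e-05). Il33, an interleukin stored in the nucleus of stromal cells, was at 0.23, 1.11 and 0.00 without and at -1.81, -2.27 and -2.02 with BMP4, 5.58-fold lower (adjusted p = 0.0012). The untreated array numbered 2 was the highest in each of these genes. The falls that came next included secreted proteins, with the corticotropin-releasing hormone gene Crh (-2.42 ± 0.26), Igfbp5 (-2.42 ± 0.18), Pamr1 (-2.33 ± 0.21), Igf1 (-2.18 ± 0.23), Abi3bp (-2.09 ± 0.25) and Smoc2 (-2.04 ± 0.14). The others were the ferritin receptor gene Scara5, the retinoic acid-binding protein gene Crabp2, the transcriptional repressor gene Hic1, the GTPase-activating protein gene Arhgap20, the phosphate-regulating endopeptidase gene Phex and the co-receptor gene Tgfbr3. Hic1 had a small spread, with the BMP4 arrays at -1.48, -1.44 and -1.46 and the untreated arrays at 0.56, 1.00 and 0.56 (adjusted p = 3.9e-05).

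**Figure D1:**
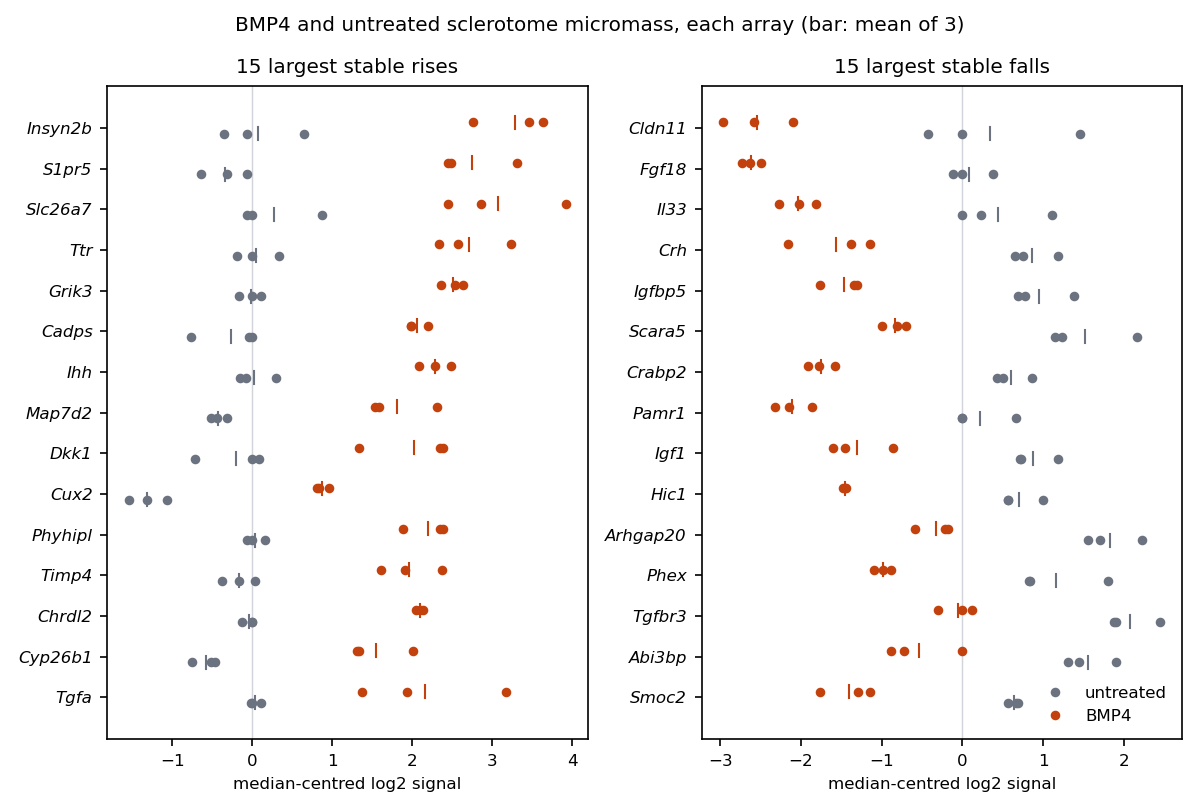
Each point is the median-centred log2 signal (x axis) of 1 array for the 15 largest stable rises (left) and falls (right) outside the BMP target and cartilage lists, grey for untreated and orange for BMP4, with a bar at the mean of 3 arrays. The BMP4 and untreated points of each gene do not overlap, which the rule for a stable call required. The spread within a group differs widely between genes, from Hic1 (BMP4 arrays at -1.48 to -1.44) to Tgfa (1.37 to 3.17).

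Transcription factor families differed in the direction of their calls. Gata factors, zinc finger regulators of blood, heart and endoderm development, had 3 stable rises and 0 stable falls among 6 genes, namely Gata3 (2.62 ± 0.33), Gata2 (1.66 ± 0.11) and Gata6 (1.41 ± 0.18). Gata3 and Gata2 also belong to the list of BMP target genes. Gata6 was at -0.16, -0.38 and 0.29 in untreated and at 1.51, 1.05 and 1.44 in BMP4 arrays. Among 23 Klf and Sp genes, the Krüppel-like factors Klf2 (1.19 ± 0.15), Klf4 (1.14 ± 0.16) and Klf15 (0.96 ± 0.17) rose and none fell, and the median difference of the list was 0.26 against 0.003 over all genes. Of 42 AP-1, Atf and Cebp genes, 4 had stable rises, with the AP-1 subunit Fosl2 at 1.88 ± 0.24 and Cebpd at 1.06 ± 0.17, and 2 had stable falls, Nfe2 (-1.17 ± 0.11) and Creb5 (-1.11 ± 0.17). Nuclear receptors had 4 stable rises and 0 stable falls among 50 genes and cofactors. These were the orphan receptors Nr4a3 (1.31 ± 0.18) and Nr4a2 (0.71 ± 0.10), the glucocorticoid receptor Nr3c1 (1.09 ± 0.17) and the fat cell regulator Pparg (0.89 ± 0.16). Nr4a3 was called in 1 of 3 probe sets, and the call for Nr4a2 was lost without the 3 arrays numbered 2 (adjusted p = 0.054).

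Basic helix-loop-helix genes moved both ways, with 6 stable rises and 5 stable falls among 88. Hey2 and Hey1, repressors that lie downstream of Notch, rose by 2.06 ± 0.12 and 1.67 ± 0.14, and Hey1 also belongs to the BMP target list. Hey2 stood at -0.34, -0.47 and -0.69 without and at 1.47, 1.78 and 1.43 with BMP4 (adjusted p = 3.9e-05). Elsewhere in the Notch list of 31 genes, the ligand Jag1 had a stable rise (0.51 ± 0.09, called in 1 of its 3 probe sets) and Dtx4 a stable fall (-0.58 ± 0.09). The growth regulator Myc rose by 1.00 ± 0.09. The falls were led by Msc (-1.56 ± 0.21), the tendon regulator Scx (-1.11 ± 0.15), the clock-associated repressor Bhlhe40 (-0.83 ± 0.13) and the mesenchymal factor Twist1 (-0.79 ± 0.09). Among 14 T-box genes Tbx3 rose (1.44 ± 0.13) and Tbx18, which marks the anterior part of the somite, fell (-0.83 ± 0.09).

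Forkhead and homeobox genes had more falls than rises. Of 38 forkhead genes 4 had a stable fall, and 3 of these belong to the Foxp subfamily of repressors. Foxp4 was at 0.10, 0.00 and -0.13 in untreated and at -1.15, -1.29 and -0.79 in BMP4 arrays (-1.06 ± 0.13, adjusted p = 0.0013). Foxp2 was at 0.02, 0.36 and 0.00 without and at -0.76, -0.81 and -0.75 with BMP4 (-0.90 ± 0.11, adjusted p = 0.0018). Foxp1 was at 0.52, 0.44 and 0.00 without and at -0.95, -0.91 and -0.48 with BMP4 (-1.10 ± 0.17, adjusted p = 0.0045). The call for Foxp1 was lost without the 3 arrays numbered 2 (adjusted p = 0.086). Foxd1, a factor of stromal mesenchyme, fell by 0.85 ± 0.10. Homeobox genes outside the Hox, Msx and Dlx families had 1 stable rise and 5 stable falls among 116. The rise was that of Cux2 (2.18 ± 0.12), and the falls included the somite genes Meox1 (-1.60 ± 0.13) and Uncx (-1.38 ± 0.14), the latter a marker of the posterior sclerotome, and Irx3 (-0.90 ± 0.15). The Hox genes, which set position along the body axis, had 0 stable calls among 33, with 1 gene called higher and 3 lower in the fit of all arrays.

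The zinc finger factors of the hedgehog and mesenchymal lists were divided. Osr1, a regulator of connective tissue cells, fell from 1.75, 2.13 and 1.59 in untreated arrays to -0.31, 0.00 and -0.18 in BMP4 arrays (-1.99 ± 0.15, adjusted p = 0.00013). Gli1, a hedgehog target, rose by 0.97 ± 0.17 whereas Gli2, a transducer of the hedgehog signal, fell by 0.71 ± 0.11 and the related Glis2 by 0.80 ± 0.13. Snai1, a repressor of epithelial genes, rose by 1.10 ± 0.14. The hedgehog ligand Ihh was at -0.08, -0.15 and 0.30 without and at 2.09, 2.48 and 2.29 with BMP4 (2.26 ± 0.17). Chromatin enzymes had 1 stable rise and 2 stable falls among 134 genes, the latter in the deacetylase Hdac11 (-0.85 ± 0.11) and the remodelling ATPase Smarca2 (-0.94 ± 0.14).

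Of 26 genes for BMP and GDF ligands and their receptors, 4 were called higher and 4 lower, and of these calls 1 rise and 4 falls were stable. The gene of the ligand itself, Bmp4, was lower in the cultures given BMP4 protein, with 0.01, -0.19 and 0.00 in untreated and -1.22, -2.41 and -1.08 in BMP4 arrays (-1.51 ± 0.28, adjusted p = 0.012). Gdf5, a ligand of joint-forming tissue, fell by 1.28 ± 0.18, and Rgma, a BMP co-receptor, by 0.59 ± 0.07. Bmp1, which despite its name encodes a procollagen proteinase, had a difference of -0.54 ± 0.09, a call that was lost without the 3 arrays numbered 2 (adjusted p = 0.054). The type I receptor Acvr1 rose by 0.59 ± 0.09. Outside that list, the ligand-binding Chrdl2 was at 0.00, -0.13 and 0.00 without and at 2.05, 2.10 and 2.13 with BMP4 (2.14 ± 0.14, adjusted p = 7.2e-05). Tgfbr3, the betaglycan co-receptor for TGF-β, went from 1.88, 2.45 and 1.90 to 0.12, -0.30 and 0.00 (-2.14 ± 0.16), a difference that averaging its probe sets moved by more than 1.5-fold.

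The Wnt list, 63 ligands, receptors and secreted inhibitors, had 5 stable rises and 8 stable falls, and its extracellular inhibitors were found on both sides. Dkk1, which blocks the Lrp co-receptors, was at 0.00, -0.71 and 0.09 without and at 2.38, 1.34 and 2.35 with BMP4 (adjusted p = 0.0025). Sost, another Lrp antagonist known from bone, was at -0.27, -0.57 and 0.00 without and at 2.18, 0.84 and 1.93 with BMP4 (adjusted p = 0.0044). For both genes the lowest BMP4 value was that of replicate 2. Notum, an enzyme that removes the lipid of Wnt proteins, rose by 1.41 ± 0.20 and the Wnt-binding Wif1 by 1.38 ± 0.18. In the other direction Dkk2, the relative of Dkk1, was at 1.33, 1.20 and 1.29 without and at -0.24, -0.49 and -0.23 with BMP4 (-1.60 ± 0.22, adjusted p = 0.0027). Sfrp2, a secreted Frizzled-related protein, was at 1.06, 1.71 and 1.05 without and at -0.19, 0.00 and -0.27 with BMP4 (-1.43 ± 0.16, adjusted p = 0.0010). The ligand Wnt5b (-1.34 ± 0.20) and the R-spondin receptor Lgr5 (-1.21 ± 0.15) fell as well. Lef1, a nuclear partner of β-catenin, rose by 0.97 ± 0.13.

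The Fgf family of 29 genes had 4 stable rises and 2 stable falls. Fgfr3, which restrains growth of cartilage and belongs to the cartilage list, rose by 2.33 ± 0.24, Fgfr2 by 1.03 ± 0.11 and the decoy receptor Fgfrl1 by 0.98 ± 0.07. Fgf18 (-2.70 ± 0.16) and Fgf5 (-0.99 ± 0.13) fell, while the ligand Fgf15 rose by 0.79 ± 0.14. Receptors with a stable call were thus higher, and the ligands were divided. The receptor Fgfr1 and the ligand Fgf9 were called lower in the fit of all arrays, calls that were not stable. Feedback inhibitors of receptor tyrosine kinases had 6 stable falls and 1 stable rise among 51 genes. Il17rd, an inhibitor of Fgf signalling, was at 0.00, 0.20 and -0.22 without and at -1.53, -1.99 and -1.62 with BMP4 (-1.71 ± 0.14, adjusted p = 0.00015), and Dusp9, a MAP kinase phosphatase, was the rise (0.84 ± 0.14). Among 14 Egf family genes the ligand Tgfa rose (2.13 ± 0.35) and the receptor Egfr fell (-1.53 ± 0.17). Tgfa was called in 1 of its 3 probe sets and its BMP4 arrays were widely spread, at 1.94, 3.17 and 1.37. Averaging the probe sets also brought Egfr more than 1.5-fold nearer to 0. The stem cell factor receptor Kit rose by 0.97 ± 0.08.

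Stable falls in the insulin-like and neurotrophic lists included Igf1 and Gdnf. Igf1, an insulin-like growth factor, was at 0.71, 1.19 and 0.72 in untreated and at -1.45, -0.86 and -1.60 in BMP4 arrays, and the binding protein gene Igfbp5 was at 0.77, 1.38 and 0.69 without and at -1.31, -1.76 and -1.34 with BMP4 (adjusted p = 0.00069 and 0.00012). These were the 2 stable falls among 25 genes of that list, which had 0 rises. The neurotrophin and Gdnf list of 20 genes had 4 stable falls, 1 stable rise and a median of -0.31. The ligand Gdnf (-0.91 ± 0.14) and its co-receptor Gfra1 (-1.22 ± 0.16) fell, as did the sorting receptors Sorcs2 (-1.11 ± 0.09) and Sort1 (-0.52 ± 0.07). The rise was that of the neurotrophin gene given as Ntf5 in the annotation, which went from -0.82, -1.35 and -1.11 to 0.30, 0.40 and -0.02 (1.32 ± 0.14).

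Of 22 genes of the retinoic acid pathway, 4 had a stable rise and 2 a stable fall. Cyp26b1, which degrades retinoic acid, was at -0.52, -0.75 and -0.46 without and at 1.31, 2.01 and 1.34 with BMP4 (2.13 ± 0.18, adjusted p = 0.00021). Aldh1a2, which makes retinoic acid in embryonic mesoderm, was at 0.47, 1.35 and 0.70 without and at -0.33, -0.14 and -0.41 with BMP4 (-1.14 ± 0.19, adjusted p = 0.0066). Crabp2, which carries retinoic acid to its nuclear receptors, was at 0.50, 0.86 and 0.43 without and at -1.58, -1.77 and -1.91 with BMP4 (-2.35 ± 0.19, adjusted p = 0.00016). The degrading enzyme was thus higher and the mesodermal synthetic enzyme and the carrier lower with BMP4. Their relatives went the other way, with Aldh1a1, another retinaldehyde dehydrogenase, at 0.90 ± 0.16 and Crabp1 at 0.47 ± 0.07.

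**Figure D2:**
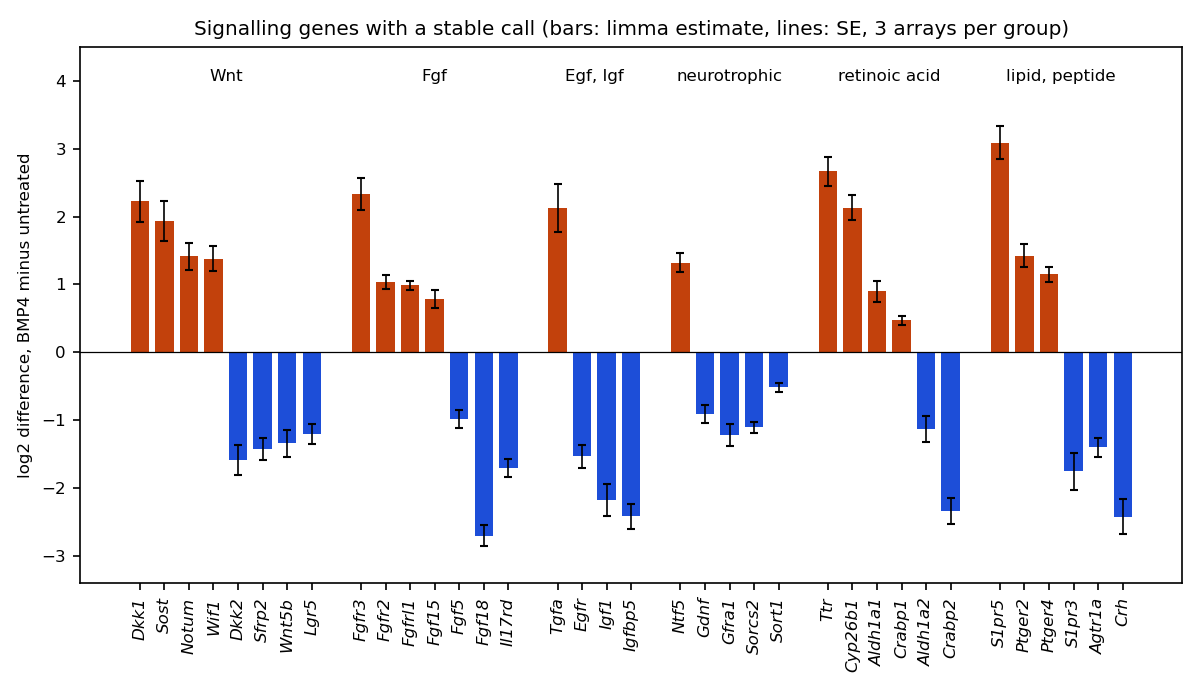
Bars give the log2 difference of BMP4 minus untreated (y axis) for signalling genes with a stable call, and the lines are SE from limma with 3 arrays per group. Orange bars are rises and blue bars falls, and in each set of bars members lie on both sides of 0, as Dkk1 (2.23) and Dkk2 (-1.60) in the Wnt family do.

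Receptors for peptides, amines and lipids had 5 stable rises and 3 stable falls among 192 genes, shares of the order of the background. Within them the sphingosine-1-phosphate receptors parted. S1pr3 was at 0.62, 0.25 and 0.54 without and at -0.93, -2.0 and -0.92 with BMP4 (-1.75 ± 0.27, adjusted p = 0.0050), opposite to S1pr5. The prostaglandin E2 receptors Ptger2 (1.42 ± 0.17) and Ptger4 (1.15 ± 0.11) rose. Their relative Ptger3 was also called higher in the fit of all arrays, and whether that call was stable is not given here. Agtr1a, an angiotensin receptor, fell from 1.27, 1.46 and 0.93 to -0.04, -0.29 and -0.20 (-1.40 ± 0.14, adjusted p = 0.00049). The membrane peptidases Enpep (-1.74 ± 0.26), which cleaves angiotensin, and Anpep (-1.37 ± 0.15) fell too. G protein regulators and second messenger genes had 4 stable rises and 3 stable falls among 132, shares of the order of the background. Among them Rgs5 (1.51 ± 0.10) and Rgs2 (1.17 ± 0.21) rose and Rgs8 fell (-0.76 ± 0.12). Among 45 neuropeptide and peptide hormone genes 4 had a stable fall and 0 a stable rise, led by Crh and followed by Calcb (-0.93 ± 0.12), the activin subunit Inhbb (-0.74 ± 0.08) and Npy (-0.69 ± 0.07).

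Stable falls outnumbered stable rises in the collagen and basement membrane lists, though most members were not called. Of 42 collagen genes 7 had a stable fall and 1 a stable rise, and the median was -0.16. Calls were 10 lower and 1 higher, against 4 lower and 3 higher without the 3 arrays numbered 2 and 12 lower and 8 higher in the fit with a replicate block. Col6a3, a chain of the microfibrillar collagen VI, was at 0.08, 0.00 and 0.09 without and at -1.35, -2.0 and -1.27 with BMP4 (-1.60 ± 0.17, adjusted p = 0.00061). Col18a1 (-0.82 ± 0.14), Col1a2 (-0.76 ± 0.12) and Col4a5 (-0.75 ± 0.13) fell, and the calls of the latter pair were lost without the arrays numbered 2 (adjusted p = 0.075 and 0.1). The transmembrane collagen Col23a1 was the rise (0.85 ± 0.15). Of 28 laminins, nidogens and other basement membrane genes 6 had a stable fall and 1 a stable rise, with a median of -0.33. Smoc2, a calcium-binding matrix protein, was at 0.69, 0.57 and 0.66 without and at -1.15, -1.76 and -1.29 with BMP4 (adjusted p = 7.2e-05). Egflam (-1.11 ± 0.13), Hmcn1 (-0.91 ± 0.13) and the laminin chain Lama4 (-0.80 ± 0.14) fell as well, whereas Ntn4, a netrin that binds laminin, rose by 1.44 ± 0.18.

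Other matrix glycoproteins had 10 stable falls and 3 stable rises among 87 genes. Pamr1 led the falls, and Sned1 (-1.67 ± 0.19), Egfl6 (-1.62 ± 0.12) and thrombospondin Thbs2 (-1.61 ± 0.14) came next. A relative, Thbs4, rose by 1.18 ± 0.07, with -1.12, -1.14 and -1.25 in untreated and 0.04, 0.00 and 0.00 in BMP4 arrays. Matrix proteases and their inhibitors had 9 stable falls and 3 stable rises among 145 genes. The inhibitor Timp4 (2.14 ± 0.18) and the procollagen proteinase enhancer Pcolce2 (1.01 ± 0.12) rose, and the proteinases Adamts12 (-1.26 ± 0.18) and Adamts18 (-1.18 ± 0.16) fell. Averaging its probe sets gave -0.62 for Adamts12, and Adamts18 was called in 1 of its 3 probe sets. The collagen-degrading cathepsin Ctsk fell by 1.02 ± 0.11, and integrin Itgb5 by 1.02 ± 0.12.

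Several genes that supply and build sulfated sugar chains rose. The list of heparan and chondroitin sulfate enzymes, which leaves out Papss2, had 9 stable rises and 3 stable falls among 66 genes, with a median of 0.05. Slc26a2, the sulfate transporter of cartilage, was at -0.21, -0.24 and -0.19 without and at 1.18, 2.06 and 1.36 with BMP4 (1.75 ± 0.18, adjusted p = 0.00061). Chst11, which sulfates chondroitin, was at 0.06, 0.00 and -0.15 without and at 1.01, 1.80 and 1.01 with BMP4 (1.30 ± 0.18, adjusted p = 0.0030). Slc35d1, which carries nucleotide sugars for chondroitin into the endoplasmic reticulum, was at 0.00, 0.00 and -0.23 without and at 0.82, 1.77 and 0.86 with BMP4 (1.23 ± 0.21, adjusted p = 0.0091). Each of these genes was highest in BMP4 replicate 2, the array that also had the highest Papss2 and Sox9 values. Gfpt2, which starts the synthesis of amino sugars, rose by 1.12 ± 0.16. The falls were those of Sulf1 (-0.87 ± 0.15) and Arsb (-0.77 ± 0.11), which remove sulfate from heparan and chondroitin chains, and of Chst15 (-0.60 ± 0.10), which adds it to chondroitin.

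**Figure D3:**
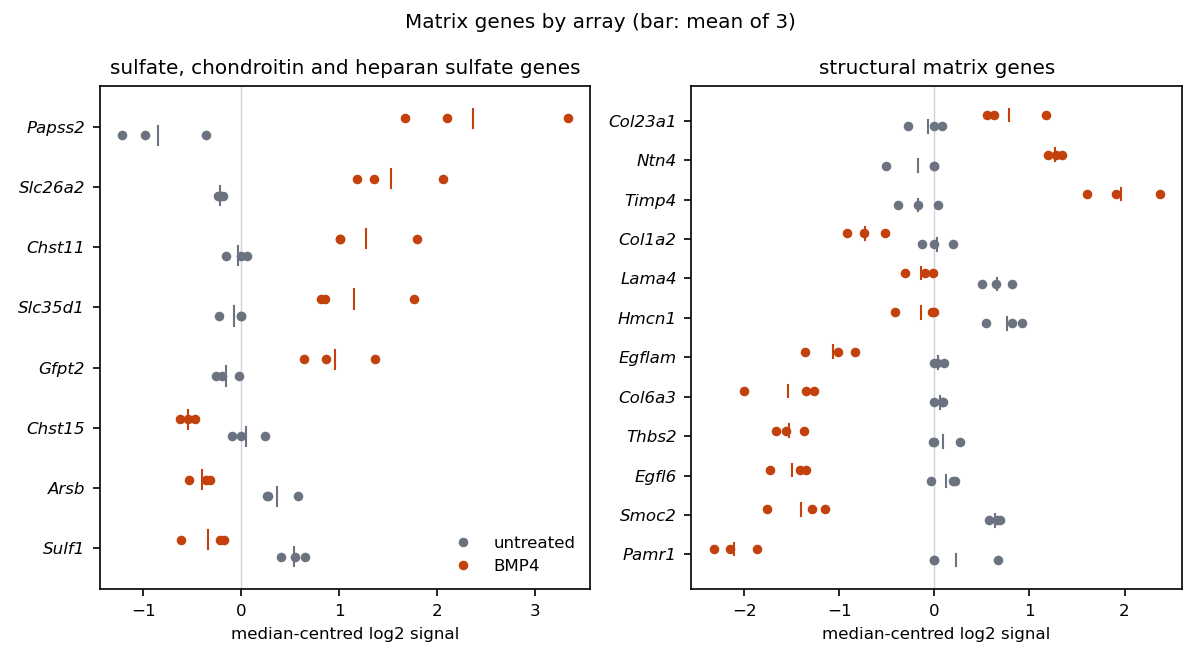
Median-centred log2 signal (x axis) of each array for sulfate, chondroitin and heparan sulfate genes (left) and structural matrix genes (right), grey for untreated and orange for BMP4, with a bar at the mean of 3 arrays. On the left Papss2, Slc26a2, Chst11, Slc35d1 and Gfpt2 are higher with BMP4, and on the right 9 of the 12 genes shown, from Col1a2 to Pamr1, are lower. The genes were picked from the stable calls, so these counts describe the selection, and Timp4 is a proteinase inhibitor.

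Cell adhesion genes changed in both directions. Of 63 cadherins and protocadherins 5 had a stable rise and 4 a stable fall. Cdh22 (1.92 ± 0.23), Pcdh10 (1.91 ± 0.21) and Cdh6 (1.11 ± 0.14) rose, and the atypical cadherin Fat3 (-1.28 ± 0.20) and Cdh4 (-0.97 ± 0.14) fell, the last with a call that was lost without the arrays numbered 2 (adjusted p = 0.051). Most guidance genes were not called. Semaphorins, plexins and neuropilins had 5 stable falls and 1 stable rise among 33 genes, with a median of -0.14. Sema3f, a secreted repellent, was at -0.19, 0.19 and 0.00 without and at -1.57, -1.65 and -1.71 with BMP4 (-1.64 ± 0.13, adjusted p = 0.00013). Its receptor Nrp2 (-1.06 ± 0.14) and the ligand Sema3e (-0.87 ± 0.09) fell, and the transmembrane Sema6d rose (0.84 ± 0.08). Slit, Robo, netrin and Unc5 genes had 3 stable rises and 2 stable falls among 22. The netrin relatives Ntng1 (1.71 ± 0.13) and Ntn4 rose, while the netrin receptor Unc5d fell by 1.02 ± 0.18. Its relative Unc5b was called higher and Dcc lower in the fit of all arrays, calls that were not stable. Of 21 ephrins and Eph receptors 2 had a stable fall and 0 a stable rise, and Epha4, an Eph receptor of somite boundaries, fell by 0.95 ± 0.15.

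Arhgap20 was at 1.70, 2.22 and 1.55 without and at -0.21, -0.59 and -0.18 with BMP4 (-2.15 ± 0.17, adjusted p = 0.00013), and the guanine nucleotide exchange factor Trio fell by 1.02 ± 0.08. Trio was called in 2 of its 6 probe sets, and averaging these gave -0.31. Of 12 septins, GTP-binding proteins that form filaments, 3 had a stable fall and none rose: Septin4 (-1.29 ± 0.10), Septin6 (-0.88 ± 0.10) and Septin9 (-0.42 ± 0.07), the last without a call when the arrays numbered 2 were left out. Map7d2 was at -0.44, -0.52 and -0.31 without and at 1.58, 2.31 and 1.54 with BMP4 (2.23 ± 0.18, adjusted p = 0.00016).

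Several genes best known from neurons rose, although the list of synaptic and neurotransmitter receptor genes as a whole had 5 stable rises and 7 stable falls among 171. Grik3 was at 0.11, -0.17 and 0.00 without and at 2.36, 2.53 and 2.64 with BMP4 (2.53 ± 0.20, adjusted p = 0.00016). The NMDA receptor subunit Grin3a rose by 1.62 ± 0.21, called in 3 of 3 probe sets, and the exocytosis sensor Syt7 by 1.45 ± 0.15, called in 3 of 4. Another synaptotagmin, Syt13, fell by 1.79 ± 0.09 and the secreted neuronal pentraxin Nptx1 by 0.77 ± 0.11. Of 82 potassium channel genes 4 had a stable rise and 2 a stable fall. The M-current subunits Kcnq5 (1.70 ± 0.11, 3 of 3 probe sets) and Kcnq3 (1.32 ± 0.11, 2 of 2) rose, and Kcnd2, of the transient A-type current, fell (-1.27 ± 0.19). Of the 7 neuronal markers, Map2 was called higher and Nefl lower, and Tubb3, Elavl3, Elavl4, Stmn2 and Snap25 were not called.

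Solute carriers had 8 stable rises and 6 stable falls among 337 genes, close to the background shares. Slc26a7 and Slc26a2 led the rises, followed by the inositol transporter Slc2a13 (1.04 ± 0.13) and the choline transporter Slc44a1 (1.02 ± 0.09). The urea transporter Slc14a1 was at 0.33, 0.66 and 0.21 without and at -1.34, -1.42 and -1.70 with BMP4 (-1.89 ± 0.13, adjusted p = 7.2e-05), and the iron exporter Slc40a1, ferroportin, fell by 1.42 ± 0.18. The lipid transporters Abca9 (-1.53 ± 0.19) and Abca3 (-1.48 ± 0.19) and the glutathione transferase Mgst1 (-1.61 ± 0.17) fell.

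In intermediary metabolism, 7 of 42 amino acid and one-carbon genes had a stable rise and 0 were called lower. Mthfd2, the mitochondrial folate enzyme, was at -0.72, -1.18 and -0.40 without and at 0.19, 0.34 and 0.04 with BMP4 (0.95 ± 0.17, adjusted p = 0.0098). Psph, the last enzyme of serine synthesis, was at -0.29, -0.48 and -0.29 without and at 0.54, 0.58 and 0.33 with BMP4 (0.84 ± 0.09, adjusted p = 0.00073). Aldh1l2, which releases carbon dioxide from formyl folate in mitochondria, and asparagine synthetase Asns were higher by 0.76 ± 0.13 and 0.75 ± 0.14. The count of calls in this list fell to 2 without the 3 arrays numbered 2, where Aldh1l2 and Asns had adjusted p values of 0.051 and 0.053. Hexokinase Hk2, the entry of glucose into glycolysis, rose by 1.05 ± 0.18. Fatty acid and adipocyte genes had 4 stable rises and 2 stable falls among 64, with the carrier Fabp7 at 1.17 ± 0.11, the acyltransferase Agpat3 at -0.76 ± 0.11 and the fatty acid oxidation enzyme Acadm at -0.67 ± 0.10. Cholesterol synthesis had 0 of 25 genes called in limma, with 4 higher and 0 lower at an unadjusted p of 0.05.

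Lists of general cell maintenance differed. In limma the respiratory chain and ATP synthase had 0 of 83 genes called with a median of 0.00 (2 higher and 3 lower at an unadjusted p of 0.05), the proteasome 0 of 49 (4 higher and 2 lower) and the aminoacyl-tRNA synthetases 0 of 36 (10 higher and 1 lower). Cell cycle and replication genes had 2 higher and 2 lower calls among 62, of which 0 were stable. Ribosome biogenesis genes had a median of 0.28, with 49 of 50 above 0, and 33 were higher and 0 lower at an unadjusted p of 0.05. Of these genes 5 were called higher in limma and 15 in the fit with a replicate block, and 0 calls were stable. The number called was 0 without BMP4 replicate 1, without BMP4 replicate 2 and without untreated replicate 2, 1 without TGF-β1 replicate 3, 2 without TGF-β1 replicate 1 and 3 without untreated replicate 3. Genes of the unfolded protein response, chaperones and secretion had 14 of 56 called higher and 0 lower, with a median of 0.23 and 49 of 56 above 0. That count was 4 without BMP4 replicate 2, 5 without BMP4 replicate 1, 8 without BMP4 replicate 3, 7 without untreated replicate 2 and 9 without untreated replicate 1 or 3. The collagen lysyl hydroxylase Plod2 had a stable rise in it (1.11 ± 0.17, adjusted p = 0.0045).

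**Figure D4:**
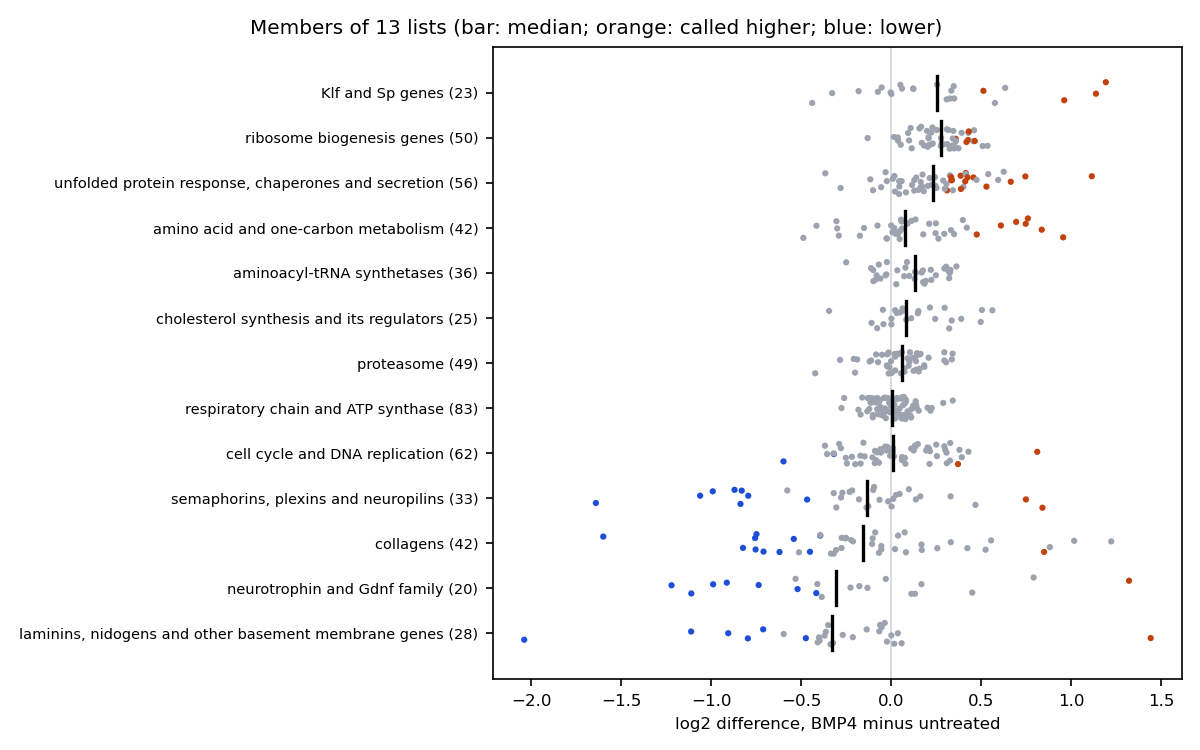
Each point is a gene, placed at its log2 difference of BMP4 minus untreated (x axis) within 1 of 13 lists (y axis, with the number of measured genes), with random vertical spread, the list median as a bar, and genes called higher in orange and lower in blue. Respiratory chain genes gather at 0 (median 0.00), nearly all ribosome biogenesis genes lie slightly above it (49 of 50), and basement membrane genes reach -2.04.

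Ubiquitin ligase families had 14 stable rises and 6 stable falls among 296 genes. Hecw2 was at 0.00, -0.41 and -0.22 without and at 1.71, 1.98 and 1.56 with BMP4 (1.96 ± 0.13, adjusted p = 7.2e-05), and Rnf128 (1.61 ± 0.17) and Trim9 (1.25 ± 0.21) rose beside Wwp2 of the cartilage list. RNA-binding proteins had 3 stable calls in each direction among 138 genes. The splicing regulator Celf4 rose by 1.45 ± 0.08 in 3 of 3 probe sets, and within the muscleblind family Mbnl3 fell from 1.14, 1.14 and 0.82 to -0.36, -0.54 and -0.48 (-1.50 ± 0.10, adjusted p = 7.2e-05). Its relative Mbnl1 had a difference of 0.76 ± 0.11, called in 1 of 3 probe sets, and the call ended when these were averaged (adjusted p = 0.062). Gadd45b, a stress and growth arrest gene, went from -1.11, -1.59 and -1.33 to 0.52, 0.29 and 0.41 (1.75 ± 0.13), while Gas2 fell by 1.36 ± 0.15. Of 41 imprinted genes, Phlda2 (1.25 ± 0.18) and Asb4 (0.79 ± 0.12) had a stable rise and Ppp1r9a (-0.77 ± 0.14) a stable fall.

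Calls in the immune lists went both ways outside the interferon-stimulated genes. Of 38 interferon-stimulated genes 3 had a stable fall and 0 rose, among them Ifitm1 (-0.78 ± 0.09). The other stable falls, Ddx58 and Eif2ak2, lost their calls without the 3 arrays numbered 2 (adjusted p = 0.08 and 0.087 in limma). Ddx58 was called in 1 of its 3 probe sets. Calls in that list were 6 lower in the fit of all arrays and 1 lower without the arrays numbered 2. Cxcl12, the stromal chemokine, was at 0.85, 0.84 and 0.96 without and at -0.20, -0.92 and -0.22 with BMP4 (-1.33 ± 0.16, adjusted p = 0.0015), and its receptor Cxcr4 was at -0.27, -0.28 and -0.72 without and at 0.79, 0.78 and 0.39 with BMP4 (1.07 ± 0.15, adjusted p = 0.0027). Cxcl12 and Cxcr4 thus moved in opposite directions. The receptor gene Ackr3 of the same list was called lower, a call that was not stable. The scavenger receptors Scara5 (-2.35 ± 0.28) and Colec12 (-1.31 ± 0.17) and the stromal marker Cd248 (-1.34 ± 0.20) fell, and Tnfrsf11b, osteoprotegerin, rose by 1.51 ± 0.27.

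**Figure D5:**
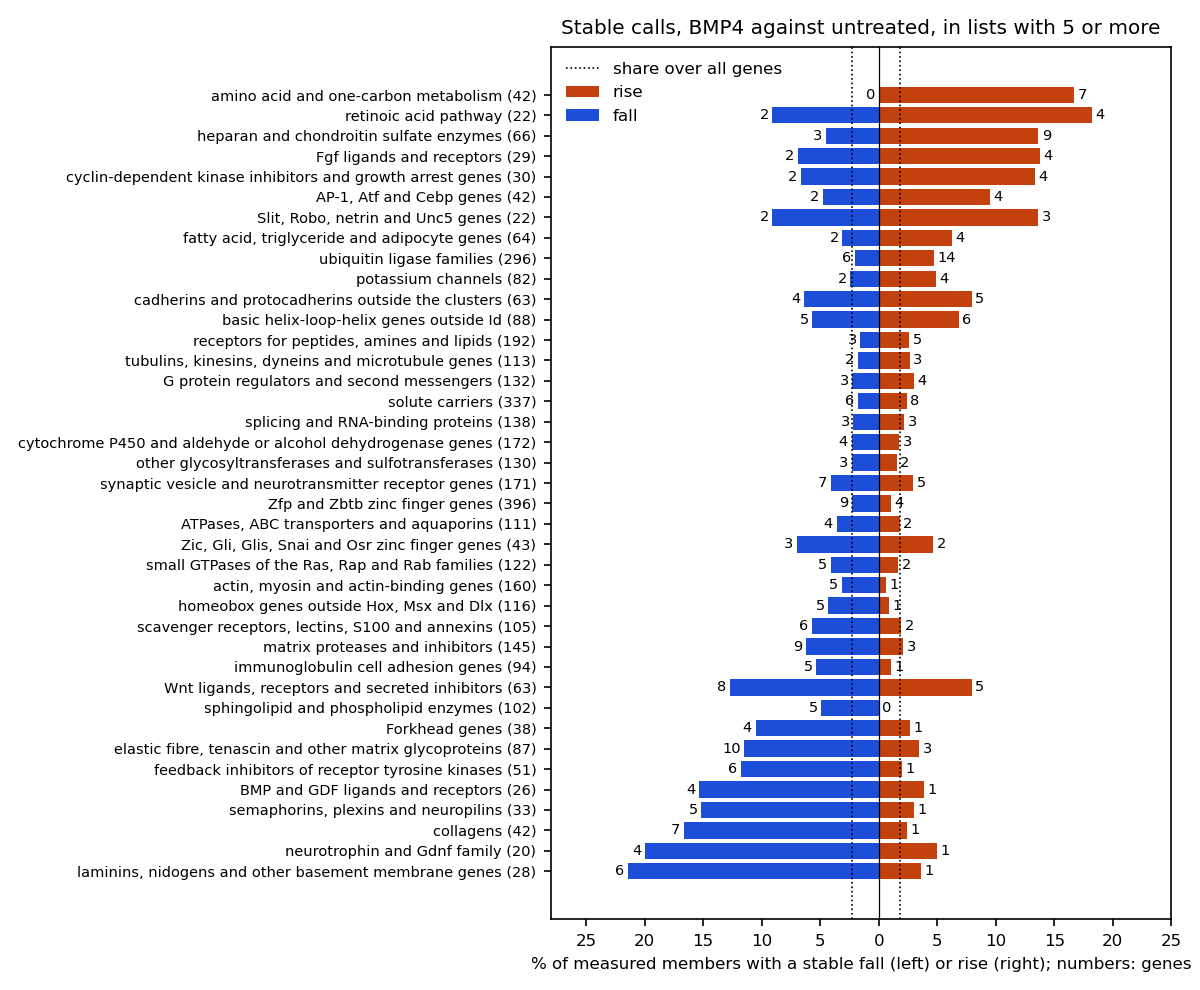
Bars give the share of measured members of each list (number in parentheses) with a stable rise (orange, right) or a stable fall (blue, left) in percent, with the number of genes at the bar end and dotted lines at the shares over all genes, 1.83% and 2.29%. Lists with 5 or more stable calls are shown, except 1 that is not reported here, from amino acid and one-carbon metabolism (7 rises, 0 falls) to basement membrane genes (1 rise, 6 falls).

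The direct difference between BMP4 and TGF-β1 cultures was called for 1833 of the 18193 genes (10.1%) and for 241 of the 325 genes named by the rule. The named genes were chosen on the same BMP4 arrays, so their share is a description. Fgf18 differed most widely in opposite directions from untreated, with means of -2.62 for BMP4, 0.09 for untreated and 2.23 for TGF-β1 (BMP4 minus TGF-β1 -4.84 ± 0.16, adjusted p = 1.2e-06). Slc26a7 had means of 3.08, 0.26 and -1.40 in the same order (4.48 ± 0.35, adjusted p = 7.4e-05), and Scx had -1.17, -0.07 and 1.94 (-3.12 ± 0.15, adjusted p = 6.5e-06). For these genes each factor lay on its own side of the untreated cultures. Other changes were not distinguishable between the factors, as the falls of Osr1 and Sfrp2 and the rise of Mthfd2 show. Osr1 had means of -0.16 with BMP4 and -0.03 with TGF-β1 against 1.82 in untreated (difference -0.13 ± 0.15, adjusted p = 0.70), and Sfrp2 had -0.16 and -0.07 against 1.27 (-0.08 ± 0.16, adjusted p = 0.84). Mthfd2 had 0.19 and -0.03 against -0.77 (0.22 ± 0.17, adjusted p = 0.54). A value that missed the threshold here does not show that the factors act alike.

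Promoter sequence was examined because Smad proteins bind GC-rich elements. The motif GGCGCC, which reads the same on both strands, was sought from 250 bases before to 50 bases after the start of each gene in the RefSeq promoter table (GRCm38.p6), using the promoter listed first for a gene. Of the 18193 measured genes 14368 had such a promoter and 18.2% of these held the motif, against 12% of all 27025 genes in the table. Among the genes with a promoter the motif was found in 83 of 260 stable rises (31.9%) and in 70 of 310 stable falls (22.6%). The GC content of the promoters moved with this, with medians of 66.2% in stable rises, 62.3% in stable falls and 58.7% in all measured genes, and its part in the shares was not tested. The longer element, the motif followed after 5 bases by GTCT on either strand, was found in 0 of the 570 promoters of stable calls and in 0.0835% of those measured. Of the 325 named genes 236 had a promoter and 51 of these held the motif. Genes on a chromosome that was set aside were not eligible for printing. Of the remaining genes with the motif, the 4 with the largest change, all rises, are printed 5′ to 3′ with it in capitals. A match is a description of the sequence and shows no binding. They lie at chr2:71546705-71547004 (minus strand, Dlx2, a homeobox gene of the BMP target list), chr2:9878551-9878850 (minus, Gata3), chr4:125490446-125490745 (plus, Grik3) and chr5:33721474-33721773 (plus, Fgfr3, the first of 2 promoters listed).
Dlx2: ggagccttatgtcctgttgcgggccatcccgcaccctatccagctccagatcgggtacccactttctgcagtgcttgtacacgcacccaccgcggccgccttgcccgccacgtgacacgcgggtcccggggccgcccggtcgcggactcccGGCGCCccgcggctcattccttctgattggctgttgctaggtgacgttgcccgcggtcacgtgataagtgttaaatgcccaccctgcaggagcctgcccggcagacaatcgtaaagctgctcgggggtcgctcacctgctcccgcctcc
Gata3: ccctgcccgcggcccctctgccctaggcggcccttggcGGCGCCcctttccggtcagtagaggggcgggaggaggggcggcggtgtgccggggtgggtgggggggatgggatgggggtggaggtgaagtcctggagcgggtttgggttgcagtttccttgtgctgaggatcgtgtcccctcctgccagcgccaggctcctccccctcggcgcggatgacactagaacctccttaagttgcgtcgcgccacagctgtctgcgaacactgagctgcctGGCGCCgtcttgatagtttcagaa
Grik3: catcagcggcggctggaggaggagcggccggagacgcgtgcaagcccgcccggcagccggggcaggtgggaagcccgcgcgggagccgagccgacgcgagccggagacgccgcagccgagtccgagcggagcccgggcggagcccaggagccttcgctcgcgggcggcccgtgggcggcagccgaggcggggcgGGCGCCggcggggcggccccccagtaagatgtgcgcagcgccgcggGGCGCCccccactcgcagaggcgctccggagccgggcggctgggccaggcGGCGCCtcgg
Fgfr3: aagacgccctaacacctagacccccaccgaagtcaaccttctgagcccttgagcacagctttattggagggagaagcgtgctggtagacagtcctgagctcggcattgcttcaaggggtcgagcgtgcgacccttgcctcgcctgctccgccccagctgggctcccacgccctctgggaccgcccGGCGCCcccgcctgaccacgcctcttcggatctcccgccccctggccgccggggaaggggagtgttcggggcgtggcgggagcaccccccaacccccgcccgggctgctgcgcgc

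Gata3 and Grik3 held the motif 2 and 3 times, Dlx2 and Fgfr3 1 time each. The nearest motif began 10 bases before the start of Grik3, and in Gata3 it began 26 bases after it.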

How the data were processed

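RNA of 9 sclerotome micromass cultures was measured on Affymetrix mouse genome arrays, 3 untreated, 3 with BMP4 and 3 with TGF-β1. The authors deposited log2 signals obtained with RMA, per the submitters' processing notes. No version was stated there. All 45101 probe sets had a median of 0 across arrays (tolerance 1e-06), so each had been centred, and no filter on dim probe sets was possible. The 64 control probe sets were left out. Of 45037 probe sets, 34945 had 1 gene symbol in the platform annotation, 932 several and 9160 none. Where a gene had several probe sets, the one that varied most across all 9 arrays stood for it. No other per-sample columns were present (0), and 0 pairs of arrays were identical. The number of arrays limits the precision, and p-values measure the spread between cultures that the study set up separately.

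Groups came from the sample labels. limma 3.58.1 in R 4.3.3 fitted the 3 groups over all 9 arrays (residual df 6, prior df 4.01, median residual SD 0.129), with two-sided p-values adjusted by Benjamini-Hochberg over 45037 probe sets. The same steps were tested on simulated data. Python 3.11.15 counted the lists and drew the figures.

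The result of 1 list is not reported here. Members of 101 gene lists and the rules were chosen with earlier results of these data known. Named are the 15 largest stable rises and 15 largest falls outside the BMP target and cartilage lists. Added to these are up to 4 stable calls per direction in each list and the markers Nog, Sox9 and Papss2. A stable call held in each fit without 1 array, with no overlap of the groups. Of the 325 genes so named, those with a well-known role are described. Marker genes of other cell types are named beside their counts. Alternatives were the BMP4 and untreated arrays alone, the replicate number as a block, leaving out each array or the 3 numbered 2, other scalings, a filter on SD, robust moderation, other ways to choose a probe set, and the methods' t-test.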

Additional observations from a re-analysis of the deposited data

How the results depend on the processing

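The log2 differences of the 325 named genes reversed in 0 cases over 18 alternatives, and 267 lost their call in none of them. Calls lost numbered 50 without the 3 arrays numbered 2, 12 with the mean over the probe sets of a gene and 5 without probe sets that can cross-hybridize. The mean over probe sets moved 35 of these genes by more than 1.5-fold, all of them nearer to 0. Among them are Papss2, Slc26a7, Grik3, Cux2, Timp4, Tgfa, Sost, Fosl2, Scara5, Phex, Tgfbr3, Sema3f, Syt13, Hecw2 and Egfr. The same holds for Trio, Adamts12, Abca3, Abca9, Mgst1, Gas2, Lgr5, Ntng1, Pcdh10, Rgs5, Creb5, Syt7, Nr4a3, Tnfrsf11b and Wwp2. Leaving out cross-hybridizing probe sets moved Ttr and Igfbp5, and quantile normalization moved Insyn2b, Osr1 and Tgfbr3, by as much.

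The counts depended more on the fit. Genes called numbered 1448, and probe sets called 2449. The fit of the BMP4 and untreated arrays alone gave 1617 probe sets called and 1022 genes called, which has fewer arrays to estimate the spread. Without the 3 arrays numbered 2 there were 1200 probe sets called and 782 genes called. Without 1 array, probe sets called ranged from 1431 to 2262 and genes called from 905 to 1362, the lowest without BMP4 replicate 2; without BMP4 replicate 1 there were 1511 and 947. The methods' t-test gave 433 probe sets called at a p of 0.05 and 2-fold, and 0 after Benjamini-Hochberg, with 4644 at an unadjusted p of 0.05. The replicate block gave 4069 probe sets called and 2375 genes called. Deviations of same-numbered BMP4 and untreated arrays from their group means correlated at -0.049, 0.502 and 0.239 for numbers 1, 2 and 3. The study set up the cultures on separate occasions, but the labels do not say that a number marks an occasion. The block stayed an alternative because 1 of the 3 correlations was not above 0.1. With 3 arrays per group such correlations cannot decide whether the arrays are paired. Unless stated otherwise, calls and their stability are those of fits without the block. With 3 arrays per group and centred signals, small changes and changes of genes near background cannot be judged.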

Other observations

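Some genes outside the lists also had stable calls of at least 2-fold, and they were chosen after their values were seen. Mbp, a gene of myelin, was at -0.02, 0.20 and 0.00 in untreated and at 1.64, 3.08 and 1.75 in BMP4 arrays (2.10 ± 0.31, adjusted p = 0.0035 in limma), with 3 of its 8 probe sets called. Tmem100, a membrane protein gene known as a BMP target in endothelium, was at 0.00, 0.00 and -0.02 without and at 2.04, 2.31 and 1.63 with BMP4 (2.00 ± 0.15), in 2 of 2 probe sets. Wt1, a transcription factor of kidney and mesothelium, was at 0.43, 0.53 and 0.19 without and at -0.96, -1.28 and -0.86 with BMP4 (-1.42 ± 0.14). Chodl, a membrane lectin gene, was at 0.33, 0.90 and 0.06 without and at -1.64, -1.44 and -1.59 with BMP4 (-1.98 ± 0.18). Tgfbr2, the type II receptor for TGF-β, was at 0.00, 0.61 and 0.00 without and at -1.16, -1.16 and -1.13 with BMP4 (-1.35 ± 0.16, adjusted p = 0.0013), in 1 of its 3 probe sets.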
